A study of Mus musculus with 12 samples.

Results

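The genes described here make, carry or break down retinoic acid, the active form of vitamin A, or are its textbook sensors. They are 9 genes taken by symbol from a list (Stra6, Rdh10, Dhrs3, Aldh1a1, Aldh1a2, Aldh1a3, Crabp2, Rarb and Cyp26b1), of 35896 genes with a transcript in the deposited tables. The list was chosen with earlier results of these data known. All 9 were found in the tables, and 6 passed the filter on low counts that left 12052 genes for testing. Whole uteri of untreated, wild-type Swiss Webster mice, an outbred stock, were profiled in 12 libraries from females 8 to 12 weeks old. The labels put 3 uteri in each of the 4 stages of the estrous cycle. Proestrus held replicates 1, 2 and 3, estrus replicates 3, 4 and 5, metestrus replicates 5, 6 and 7, and diestrus replicates 3, 4 and 5. How each stage was scored is not given in the sources used here. The p-values set differences between stages against the spread within stages in these 12 samples. RNA was read by 3' TagSeq, which counts reads near the 3' end of polyadenylated transcripts. Values are given in CPM, the share of a library's scaled total of estimated counts in the usual counts-per-million unit.

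Retinol travels in blood on a carrier protein and enters many cells through the membrane receptor Stra6. Inside the cell, Rdh10 oxidises retinol to retinaldehyde, Dhrs3 turns retinaldehyde back to retinol, and the Aldh1a enzymes oxidise retinaldehyde irreversibly to retinoic acid. Crabp2 carries retinoic acid to nuclear receptors such as Rarb, and Cyp26 enzymes inactivate it. In the uterus, retinoic acid is known for roles in stromal and epithelial differentiation, and estrogen is known to act on its local production.

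Short promoter stretches are shown for genes whose results are set side by side in what follows: Aldh1a1 and Aldh1a2, which moved together over the cycle, Stra6, whose levels followed another course, and Rarb, the classical gene with a retinoic acid response element. Coordinates are GRCm38.p6, and the sequences are from RefSeq promoter entries that run from 250 bases before to 50 after an annotated start. Of the 9 genes, 6 matched 12 such entries, and for the other 3 (Aldh1a3, Rdh10 and Crabp2) none is shown. Capitals mark the motifs CCAAT, ATGCAAAT (an octamer), GGTCA (read as TGACC on the opposite strand), GGGCGG (read as CCGCCC on the opposite strand) and DR5. DR5 is a pair of direct repeats 5 bases apart, each AGGTCA, or AGTTCA, or the forms GGGTCA and GGTTCA. In the Aldh1a1 stretch the octamer and TGACC overlap by their shared T.
Aldh1a1, chr19:20601848-20601957, plus strand: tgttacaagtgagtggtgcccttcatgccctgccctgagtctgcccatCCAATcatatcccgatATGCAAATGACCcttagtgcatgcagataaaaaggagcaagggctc
Aldh1a2, chr9:71215669-71215778, plus strand: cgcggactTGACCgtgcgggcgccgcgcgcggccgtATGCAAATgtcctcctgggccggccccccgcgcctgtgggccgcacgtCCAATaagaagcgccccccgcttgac
Stra6, chr9:58134586-58134609, plus strand: ccacagcCCGCCCGCCCacccttt
Rarb, chr14:16575509-16575533, minus strand: gaagGGTTCACCGAAAGTTCActcg

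Both dehydrogenase promoters shown held CCAAT, the octamer and 1 TGACC. A second Aldh1a1 entry (chr19:20492333-20492632) held none of the marked motifs. It lies near the start of transcript Aldh1a1-206, with an estimated 26.7% of the gene's counts. The entry shown lies near that of Aldh1a1-201, with an estimated 72.7%. The octamer lay 56 to 49 bases before the start in Aldh1a1 and 84 to 77 bases before it in Aldh1a2, and was in none of the other 10 entries. Among 32851 promoters of 300 bases, searched on both strands, 1.74% held the octamer, 37.4% CCAAT, 40.5% GGTCA and 35.7% GGGCGG. The octamer was added to the search after these sequences had been seen. The whole 300-base promoters differed in composition, with 78.0% G and C in Aldh1a2 and 47.0% in the Aldh1a1 entry shown. Stra6 held a pair of overlapping GGGCGG matches 72 to 63 bases before the start of the transcript with 79.8% of its counts. DR5 was in 32 promoters (0.0974%), and among the 12 entries of these genes only in Rarb, 53 to 37 bases before its start. These matches describe letters in a window and say nothing of binding.

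All 6 tested genes differed over the 4 stages in edgeR's quasi-likelihood F test, at an adjusted p under 0.05 over all genes tested; 23.2% of the 12052 genes were called. Because the genes were chosen with earlier results of these data known, this is not an independent comparison. The 2 retinaldehyde dehydrogenases that passed the filter and Crabp2 were highest in proestrus and lower in estrus. Rdh10 and Dhrs3 had their highest means in estrus and their lowest in diestrus, and Stra6 was lowest in estrus and highest in diestrus. Aldh1a3, Rarb and Cyp26b1 stayed below the filter, which asked for about 5.38 CPM in enough libraries. Crabp2 was at or above that level in all 3 proestrus, 2 estrus, 1 metestrus and 2 diestrus libraries. Stra6 was at or above it in all metestrus and diestrus libraries, in 2 proestrus libraries and in 0 estrus libraries. The other 4 tested genes were above the level in all 12 libraries. In whole tissue, fewer cells of a type and less RNA per cell cannot be told apart.

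**Figure D1:**
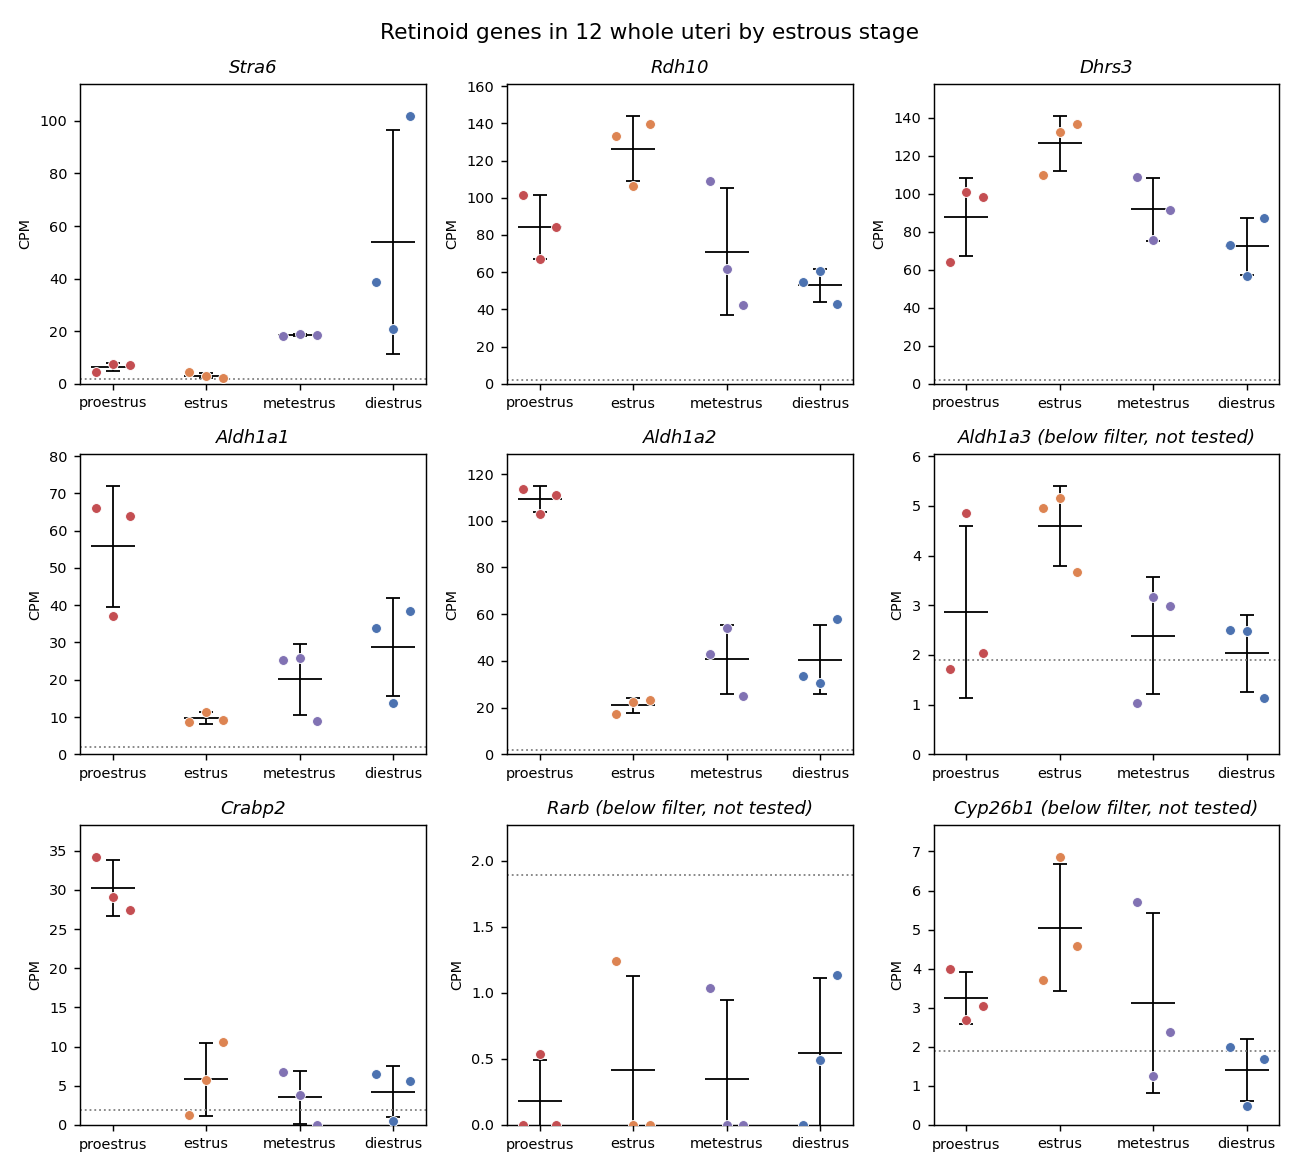
CPM of the 9 genes in each of the 12 libraries by stage, 1 panel per gene with its own axis; points are libraries, black bars the mean ± SD (n = 3), and the dotted line is the highest CPM that 3 counts give in any library (1.89). Aldh1a1, Aldh1a2 and Crabp2 have their highest means in proestrus, Rdh10 and Dhrs3 in estrus, and Stra6 in diestrus, where its libraries spread from 20.8 to 101.9 CPM.

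Stra6, the retinol receptor, is encoded at chr9:58063788-58153996 on the plus strand (ENSMUSG00000032327). It stood at 4.56, 7.55 and 7.11 CPM in proestrus and at 4.33, 2.86 and 2.29 CPM in estrus. It stood at 18.2, 18.9 and 18.5 CPM in metestrus and at 38.9, 20.8 and 101.9 CPM in diestrus. No library of one stage fell within the range of another, and the order ran estrus, proestrus, metestrus, diestrus. The means were 3.16 ± 1.05, 6.41 ± 1.61, 18.5 ± 0.394 and 53.8 ± 42.6 CPM in that order (SD, n = 3). The F test gave an adjusted p of 0.000475.

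Stra6 was 17.0-fold higher in diestrus than in estrus (log2 difference 4.09 ± 0.56 SE, edgeR adjusted p = 0.000274; 22.8% of genes were called in this comparison). It was 8.23-fold lower in proestrus than in diestrus (log2 -3.04 ± 0.50, adjusted p = 0.00216; 8.53% of genes called). Metestrus exceeded estrus 5.90-fold (log2 2.56 ± 0.61, adjusted p = 0.0232; 7.56% of genes called). That call was lost when estrus replicate 3, 4 or 5 or metestrus replicate 6 was left out, with adjusted p up to 0.0978, and held without metestrus replicate 5 (log2 2.57, adjusted p = 0.0285) or 7 (log2 2.59, adjusted p = 0.0386). The steps from proestrus to estrus (log2 -1.05, 95% interval -2.54 to 0.45, adjusted p = 0.340) and from metestrus to diestrus (log2 1.53 ± 0.44, adjusted p = 0.177) did not pass. Diestrus replicate 5 was the highest library by a wide margin. Without it the log2 difference was 3.25 against estrus (adjusted p = 0.000319) and 0.69 against metestrus (adjusted p = 0.534), and metestrus exceeded proestrus by 1.51 (adjusted p = 0.0285, against 0.121 with it).

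The counts of Stra6 came from 3 transcripts. Stra6-213 held 79.8% of them and Stra6-206 17.2%. Stra6-206 had none in proestrus or estrus, and it held 35.6% of the gene's counts in diestrus replicate 5 against 2.56% and 7.14% in diestrus replicates 3 and 4. A 3' tag seldom separates transcripts that share their end, so these shares are estimates by the authors' program.

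Rdh10, the retinol dehydrogenase (ENSMUSG00000025921, chr1:16105774-16133734, plus strand), stood at 101.5, 66.8 and 84.2 CPM in proestrus and at 133.0, 106.4 and 139.7 CPM in estrus. Its metestrus libraries were at 108.9, 61.9 and 42.3 CPM and its diestrus libraries at 54.8, 60.8 and 43.0 CPM. All 3 estrus libraries were above all proestrus and diestrus libraries, and metestrus replicate 5 lay within the estrus range. The means were 52.9 ± 9.05 CPM in diestrus, 71.0 ± 34.2 in metestrus, 84.2 ± 17.4 in proestrus and 126 ± 17.6 in estrus (SD, n = 3). Neighbours in that order did not pass the test. Rdh10 was 2.38-fold lower in diestrus than in estrus (log2 -1.25 ± 0.28, edgeR adjusted p = 0.00563), a call that held without each of the 12 libraries in turn. The estrus to metestrus step was -0.82 ± 0.27 (adjusted p = 0.0838), and -1.28 without metestrus replicate 5 (adjusted p = 0.00323). Its F test gave an adjusted p of 0.0213 and lost its call without diestrus replicate 3 or 5 or estrus replicate 3 or 5, with p up to 0.0907.

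The annotated retained-intron transcript Rdh10-202 held 13.5% of the Rdh10 counts. Its share was 19.4% over the proestrus libraries, 14.5% in estrus, 8.95% in metestrus and 7.96% in diestrus. Single libraries ran from 0% to 25.0%, the extremes being diestrus replicate 5 and proestrus replicate 3, and the stages overlapped. These shares were not tested.

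Dhrs3, the retinaldehyde reductase that returns substrate to retinol and is itself known to be induced by retinoic acid (ENSMUSG00000066026, chr4:144892827-144928209, plus strand), stood at 63.9, 100.8 and 98.5 CPM in proestrus. It reached 110.1, 132.7 and 136.9 CPM in estrus, and was at 108.9, 75.8 and 91.2 CPM in metestrus and at 72.8, 56.9 and 87.2 CPM in diestrus. The estrus libraries lay above all others, and the other stages overlapped. The means ran from 72.3 ± 15.2 CPM in diestrus through 87.7 ± 20.7 in proestrus and 92.0 ± 16.6 in metestrus to 127 ± 14.4 in estrus (SD, n = 3). Dhrs3 was 1.76-fold lower in diestrus than in estrus (log2 -0.81 ± 0.20, edgeR adjusted p = 0.0116). Without diestrus replicate 4, estrus replicate 4 or estrus replicate 5 that difference did not pass, with adjusted p up to 0.0622. Its F test (adjusted p = 0.0447) lost its call without any 1 of 8 libraries, with p up to 0.165, and with library totals in place of the scaled sizes (adjusted p = 0.0866). The difference between estrus and proestrus was 0.53 ± 0.20 (adjusted p = 0.0897).

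Aldh1a1, a retinaldehyde dehydrogenase (ENSMUSG00000053279, chr19:20492715-20643465, plus strand), stood at 66.2, 37.2 and 63.9 CPM in proestrus and at 8.66, 11.4 and 9.16 CPM in estrus. It stood at 25.4, 25.9 and 8.94 CPM in metestrus and at 33.9, 13.8 and 38.5 CPM in diestrus. Every estrus library was below every proestrus and diestrus library, and metestrus replicate 7 was as low as estrus. The means were 9.75 ± 1.48 CPM in estrus, 20.1 ± 9.65 in metestrus, 28.7 ± 13.1 in diestrus and 55.8 ± 16.1 in proestrus (SD, n = 3), and neighbours in that order did not pass the test. The F test gave an adjusted p of 0.00388.

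Aldh1a1 was 5.69-fold lower in estrus than in proestrus (log2 -2.51 ± 0.42, edgeR adjusted p = 0.00196; 17.1% of genes were called in this comparison and 7.46% lower). It was 2.92-fold higher in diestrus than in estrus (log2 1.55 ± 0.44, adjusted p = 0.0208), a call lost without diestrus replicate 3 or 5 or estrus replicate 3 or 5, with p up to 0.0822. It was 2.76-fold lower in metestrus than in proestrus (log2 -1.47 ± 0.38, adjusted p = 0.0483; 4.31% of genes called). That last call was lost for 9 of the 12 libraries when that library was left out (adjusted p at most 0.150), and read 0.130 without metestrus replicate 7 and 0.0409 without metestrus replicate 5. The difference between proestrus and diestrus, 0.96 with a 95% interval of 0.17 to 1.75, did not pass (adjusted p = 0.135). Of the 31-base words in Aldh1a1 transcripts, 5.70% are shared with the neighbouring paralog Aldh1a7, which had at most 3.55 CPM in any library. With the counts of both summed, the metestrus call was lost (adjusted p = 0.051) and no other.

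Aldh1a2, the retinaldehyde dehydrogenase best known from stroma and mesothelium (ENSMUSG00000013584, chr9:71215789-71296243, plus strand), stood at 113.5, 103.0 and 111.1 CPM in proestrus. It stood at 17.3, 22.3 and 23.4 CPM in estrus, at 43.1, 54.3 and 25.0 CPM in metestrus and at 33.4, 30.7 and 57.7 CPM in diestrus. The 3 proestrus libraries were close to each other and above all 9 others, and the 3 estrus libraries were below all others. The means were 21.0 ± 3.23 CPM in estrus, 40.6 ± 14.9 in diestrus, 40.8 ± 14.8 in metestrus and 109 ± 5.54 in proestrus (SD, n = 3). The F test gave an adjusted p of 0.000254.

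Aldh1a2 was 5.16-fold lower in estrus than in proestrus (log2 -2.37 ± 0.27, edgeR adjusted p = 0.00026) and 2.68-fold lower in metestrus than in proestrus (log2 -1.42 ± 0.26, adjusted p = 0.0118). Without metestrus replicate 7 the latter difference was -1.16 (adjusted p = 0.0285). It was 2.70-fold higher in proestrus than in diestrus (log2 1.43 ± 0.26, adjusted p = 0.0036). Diestrus exceeded estrus 1.91-fold (log2 0.93 ± 0.28, adjusted p = 0.0309). That call was lost without diestrus replicate 5 or without any 1 of the estrus replicates, with p up to 0.149 and a log2 difference of 0.60 without diestrus replicate 5. Metestrus exceeded estrus by 0.95 ± 0.29 (adjusted p = 0.0621), and by 1.22 without metestrus replicate 7 (adjusted p = 0.0136). Metestrus and diestrus differed by -0.01, with a 95% interval of -0.59 to 0.56. All Aldh1a2 counts came from 1 transcript, which shared no 31-base word with another gene.

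Aldh1a1 and Aldh1a2 had similar courses over the 12 libraries. The Pearson correlation of their log2 CPM was 0.92, and that of Aldh1a2 with Crabp2 was 0.76. Rdh10 and Stra6 ran in opposite directions, at -0.81. These are descriptions over libraries that share stages, and no p is attached.

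Aldh1a3, the dehydrogenase (chr7:66390890-66427517, minus strand) known from epithelia, had 65 counts in all and stayed between 1.04 and 5.15 CPM. Its estrus libraries were at 4.95, 5.15 and 3.66 CPM and its diestrus libraries at 2.49, 2.47 and 1.13 CPM, near the 1.37 to 1.89 CPM that 3 counts give. In a fit without the filter, diestrus and estrus differed by -1.08, with a 95% interval of -2.43 to 0.27 (adjusted p = 0.356). A difference between stages was not detectable at this depth.

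Crabp2, the retinoic acid carrier (ENSMUSG00000004885, chr3:87948666-87953376, plus strand), stood at 34.2, 29.1 and 27.4 CPM in proestrus. It stood at 1.24, 5.72 and 10.53 CPM in estrus, at 6.74, 3.79 and 0 CPM in metestrus and at 6.48, 0.494 and 5.66 CPM in diestrus. The proestrus libraries stood above all 9 others, and the other stages overlapped. The means were 30.3 ± 3.55 CPM in proestrus, 5.83 ± 4.65 in estrus, 4.21 ± 3.25 in diestrus and 3.51 ± 3.38 in metestrus (SD, n = 3), and estrus replicate 3, metestrus replicate 7 and diestrus replicate 4 were at or under the level of 3 counts.

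Crabp2 was 4.91-fold lower in estrus than in proestrus (log2 -2.30 ± 0.65, edgeR adjusted p = 0.0270), 8.22-fold lower in metestrus than in proestrus (log2 -3.04 ± 0.71, adjusted p = 0.0303) and 7.16-fold higher in proestrus than in diestrus (log2 2.84 ± 0.68, adjusted p = 0.0188). The F test (adjusted p = 0.00787) held in each fit that left out 1 library. The call against estrus was lost without estrus replicate 3 or 4 or any 1 of the proestrus replicates, with p up to 0.0872. The call against metestrus was lost without metestrus replicate 7 (adjusted p = 0.0637) or any 1 of the proestrus replicates (up to 0.0911), and that against diestrus without diestrus replicate 4 or any 1 of the proestrus replicates (up to 0.0686).

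Rarb, the retinoic acid receptor gene whose promoter carries the DR5 shown above (chr14:16430839-16819156, minus strand), had 8 counts in all 12 libraries together. No library exceeded 1.24 CPM, and all were at or below the level of 3 counts. The transcripts of Rarb share 32.1% of their 31-base words, on the opposite strand, with the overlapping gene Top2b, and the use of strand in counting is not given in the sources used here. No fold is given for Rarb.

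Cyp26b1, a retinoic acid hydroxylase (chr6:84571414-84593908, minus strand), had 71 counts in all. It stood at 3.71, 6.86 and 4.58 CPM in estrus and at 1.99, 0.494 and 1.698 CPM in diestrus. The proestrus libraries were at 3.99, 2.70 and 3.05 CPM and the metestrus libraries at 5.71, 1.26 and 2.39 CPM. The diestrus libraries lay under the estrus and proestrus libraries and overlapped metestrus. In a fit without the filter, diestrus minus estrus was -1.77, with a 95% interval of -3.19 to -0.36 (adjusted p = 0.0903), which did not pass.

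**Figure D2:**
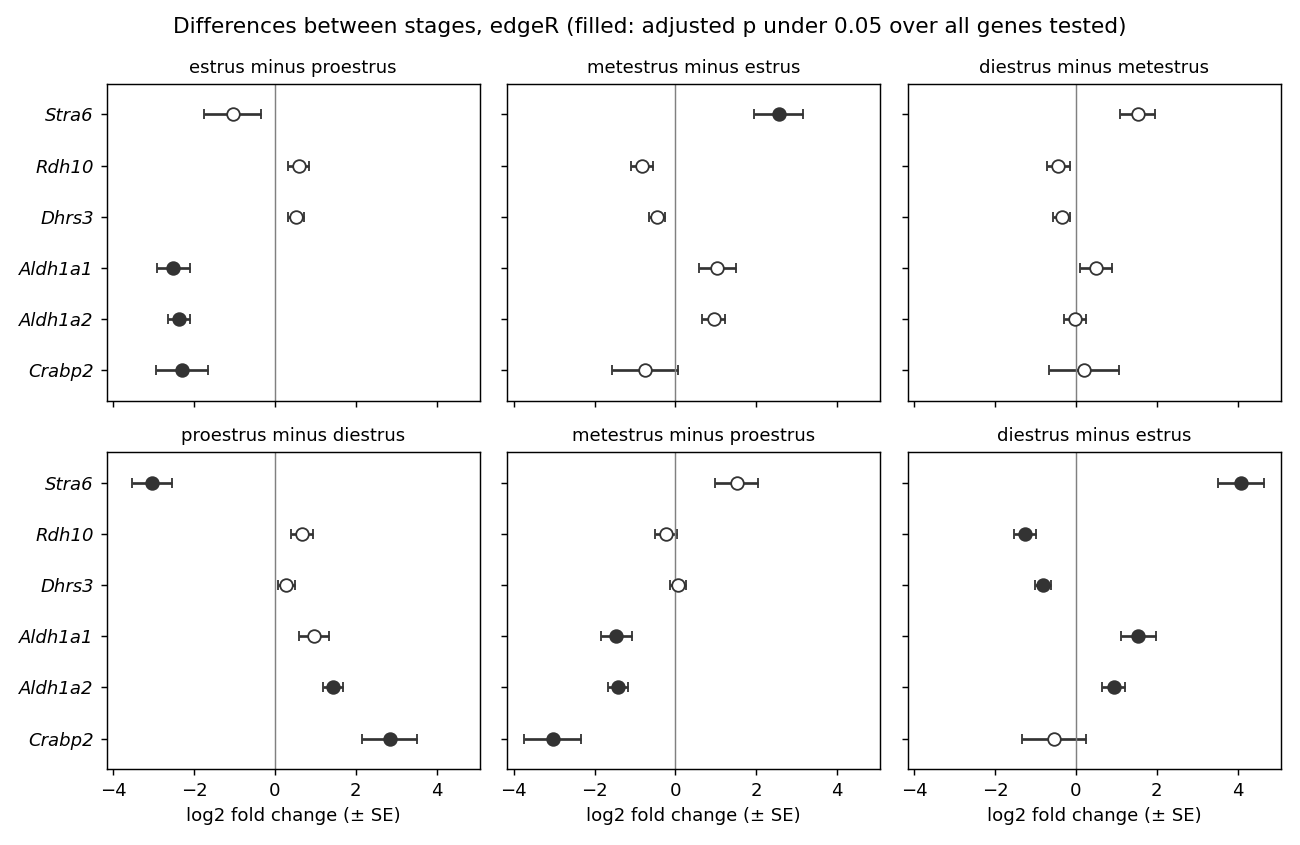
Log2 fold changes ± SE (edgeR) of the 6 tested genes in the 6 comparisons between stages, n = 3 per stage; filled points have an adjusted p under 0.05 over all genes tested. Aldh1a1, Aldh1a2 and Crabp2 are filled on the negative side for estrus minus proestrus, and diestrus minus metestrus has no filled point.

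By comparison, 3 of the 6 tested genes were lower in estrus than in proestrus (Aldh1a1, Aldh1a2 and Crabp2), as were 7.46% of all genes. Between estrus and metestrus only Stra6 was called, higher in metestrus as 2.83% of all genes were. Between metestrus and diestrus none was called by edgeR, where 0.224% of all genes were; Stra6 alone had an unadjusted p under 0.05 (0.00364), and DESeq2 called 0 of them. Between diestrus and proestrus, Aldh1a2 and Crabp2 were higher in proestrus, with 4.62% of all genes, and Stra6 lower, with 3.91%. Between proestrus and metestrus, Aldh1a1, Aldh1a2 and Crabp2 were lower in metestrus, with 1.82% of all genes. Between estrus and diestrus, Aldh1a1, Aldh1a2 and Stra6 were higher in diestrus, with 9.72% of all genes, and Rdh10 and Dhrs3 lower, with 13.0%. These comparisons share libraries, so the same estrus values enter several of them, and the genes were chosen with earlier results known.

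The rest of the pathway was read from 4 lists of other carriers, oxidoreductases, binding and breakdown genes, and receptors with their cofactors. Of their 55 genes 36 were tested and 11 were called in the F test (30.6%, against 23.2% of all genes). The mean of 5 of them was highest in proestrus, of 1 in estrus and of 5 in diestrus. In estrus against proestrus 3 were called, all lower (Adh1, Crabp1 and Rara); that is 8.33% of the tested genes of these lists, against 17.1% of all genes, of which 7.46% were lower. In diestrus against estrus 9 were called, 25.0% of the tested genes of these lists against 22.8% of all genes. Of the genes called in the F test, Lrp2, Rdh9, Adh5 and Crabp1 were higher in diestrus than in estrus, and Dhrs9, Rara, Ncoa3 and Nrip1 were lower.

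Dhrs9, a short-chain dehydrogenase that can oxidise retinol, stood at 53.1, 60.4 and 36.0 CPM in proestrus and at 21.7, 19.5 and 42.1 CPM in estrus. It was at 6.74, 14.5 and 4.77 CPM in metestrus and at 1.99, 2.47 and 0.566 CPM in diestrus. It was higher in proestrus than in diestrus by 4.80 ± 0.51 on the log2 scale (edgeR adjusted p = 0.000117) and lower in diestrus than in estrus by a log2 difference of -3.98 ± 0.53 (adjusted p = 0.000221). Its diestrus libraries lay under all others.

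Adh1, a cytosolic alcohol dehydrogenase that also acts on retinol, stood at 243.0, 182.2 and 297.4 CPM in proestrus, and between 68.7 and 123.7 CPM in the 9 other libraries. It fell by 1.29 on the log2 scale from proestrus to estrus (SE 0.20, edgeR adjusted p = 0.00138). Adh5, its relative that acts mainly on formaldehyde adducts, was highest in diestrus, at 190 ± 42.3 CPM against 104 ± 7.61 in estrus (SD, n = 3; log2 0.87 ± 0.16, adjusted p = 0.00183). Rdh1 and Rdh9 were called with means of at most 8.15 CPM. They share 14.7% and 68.3% of their 31-base words with Rdh16f1, and their values are uncertain.

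Crabp1, the second cellular retinoic acid binding protein, stood at 30.2, 32.9 and 26.4 CPM in proestrus and at 2.47, 2.29 and 3.21 CPM in estrus. It was at 3.63, 18.3 and 0.596 CPM in metestrus and at 10.97, 10.88 and 12.45 CPM in diestrus. Its proestrus libraries were above all others, as those of Crabp2 were. It was lower in estrus than in proestrus by a log2 difference of -3.44 ± 0.64 (edgeR adjusted p = 0.00345), and higher in diestrus than in estrus by 2.06 ± 0.69 (adjusted p = 0.0457). Fabp5, a fatty acid binding protein that also binds retinoic acid, was lower in proestrus (44.5 ± 8.81 CPM) than in diestrus (79.8 ± 14.4 CPM; SD, n = 3; log2 -0.84 ± 0.24, adjusted p = 0.0401). It shares 7.24% of its words with the pseudogene Gm6166. Lrp2, an endocytic receptor for retinol binding protein, was at 36.4, 56.4 and 23.8 CPM in diestrus and at most 4.06 CPM in proestrus and estrus (diestrus minus estrus 4.86 ± 0.80, adjusted p = 0.000872).

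Rara, a retinoic acid receptor, stood at 62.2, 52.3 and 56.3 CPM in proestrus and at 41.5, 38.3 and 41.7 CPM in estrus. It was at 32.2, 39.1 and 29.2 CPM in metestrus and at 30.9, 29.2 and 26.6 CPM in diestrus. The proestrus libraries were above all others, and of the metestrus libraries only replicate 6 reached the estrus range. The log2 difference between estrus and proestrus was -0.49 ± 0.15 (edgeR adjusted p = 0.0363), and that between proestrus and diestrus 0.97 ± 0.15 (adjusted p = 0.00162). Rarg (adjusted p = 0.432 in the F test), Rxra (0.147) and Rxrb (0.581) were not called. Nrip1, a ligand-dependent corepressor, had means of 196 ± 18.7 CPM in proestrus and 104 ± 19.95 CPM in diestrus. Ncoa3, a coactivator, was at 43.1 ± 4.33 CPM in estrus and 20.9 ± 6.45 CPM in diestrus.

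Cyp26a1, the other main retinoic acid hydroxylase (chr19:37697798-37701536, plus strand), was singled out after its values were seen. It stood at 113.9 CPM in metestrus replicate 7 and at no more than 1.71 CPM in the 11 other libraries, and it did not pass the filter because 1 library held nearly all its counts. The same library had the lowest Aldh1a1 and Aldh1a2 values of metestrus and no Crabp2 count. It also held 478.7 CPM of Spink1, 296.9 CPM of Prss29 and 77.5 CPM of Prss28, genes of the gland list. Other genes of that list did not share this: Foxa2 (4.77 CPM), Cxcl15 (2.98 CPM) and Lif (0.596 CPM) were lowest there among the metestrus libraries. Wfdc3 (4.77 CPM) was highest there among them. The next highest Spink1 value was 61.3 CPM in diestrus replicate 4, and the others were at most 2.83 CPM. The metestrus calls without this library are given beside Stra6, Aldh1a1, Aldh1a2 and Crabp2.

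The list of genes known to respond to retinoic acid in many cell types held 21 symbols, of which 20 matched, 13 were tested and 9 were called in the F test, in which 23.2% of all genes were called. Dhrs3, Stra6 and Crabp2 belong to that list and are counted in it. Of the other 6, Tgm2, a transglutaminase, stood at 503.5, 476.5 and 455.2 CPM in estrus and between 212.1 and 264.7 CPM in all other libraries. It rose by 1.04 ± 0.12 on the log2 scale from proestrus to estrus (edgeR adjusted p = 0.00025) and was lower in metestrus than in estrus by -1.05 ± 0.12 (adjusted p = 0.000311). Rarres2, which encodes chemerin, rose by 1.04 ± 0.14 from proestrus to estrus (adjusted p = 0.000491), and shares 30.3% of its words with Lrrc61 on the opposite strand, so its value is uncertain.

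Hic1, a transcriptional repressor, was lowest in estrus, at 24.1, 20.6 and 21.98 CPM against 28.5 to 65.7 CPM elsewhere, and its estrus minus proestrus difference was -0.92 ± 0.25 (edgeR adjusted p = 0.0255). Hoxb4, a homeobox gene, was at 26.8 ± 7.44 CPM in estrus and 7.37 ± 2.19 CPM in diestrus (SD, n = 3; log2 -1.83 ± 0.29, adjusted p = 0.000764). Nr2f2, an orphan nuclear receptor of the stroma, was higher in diestrus than in proestrus (proestrus minus diestrus -0.75 ± 0.17, adjusted p = 0.0141). Zbtb16, also known to be induced by progesterone, was at 56.6 CPM in metestrus replicate 7 and at 33.6 CPM in diestrus replicate 4, and its diestrus minus estrus difference was 2.83 ± 0.87 (adjusted p = 0.0325). The called genes of this list were split between stages: from proestrus to estrus 3 were higher and 2 lower (17.1% of all genes were called), and from estrus to diestrus 3 were higher and 5 lower (22.8% of all genes were called). The F test calls of Zbtb16, Rdh1, Nr2f2, Ncoa3, Hic1 and Fabp5 were lost when some single libraries were left out: for 7 of the 12 libraries with Zbtb16 and Rdh1, for 5 with Nr2f2 and Ncoa3, for 2 with Hic1 and for 1 with Fabp5.

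**Figure D3:**
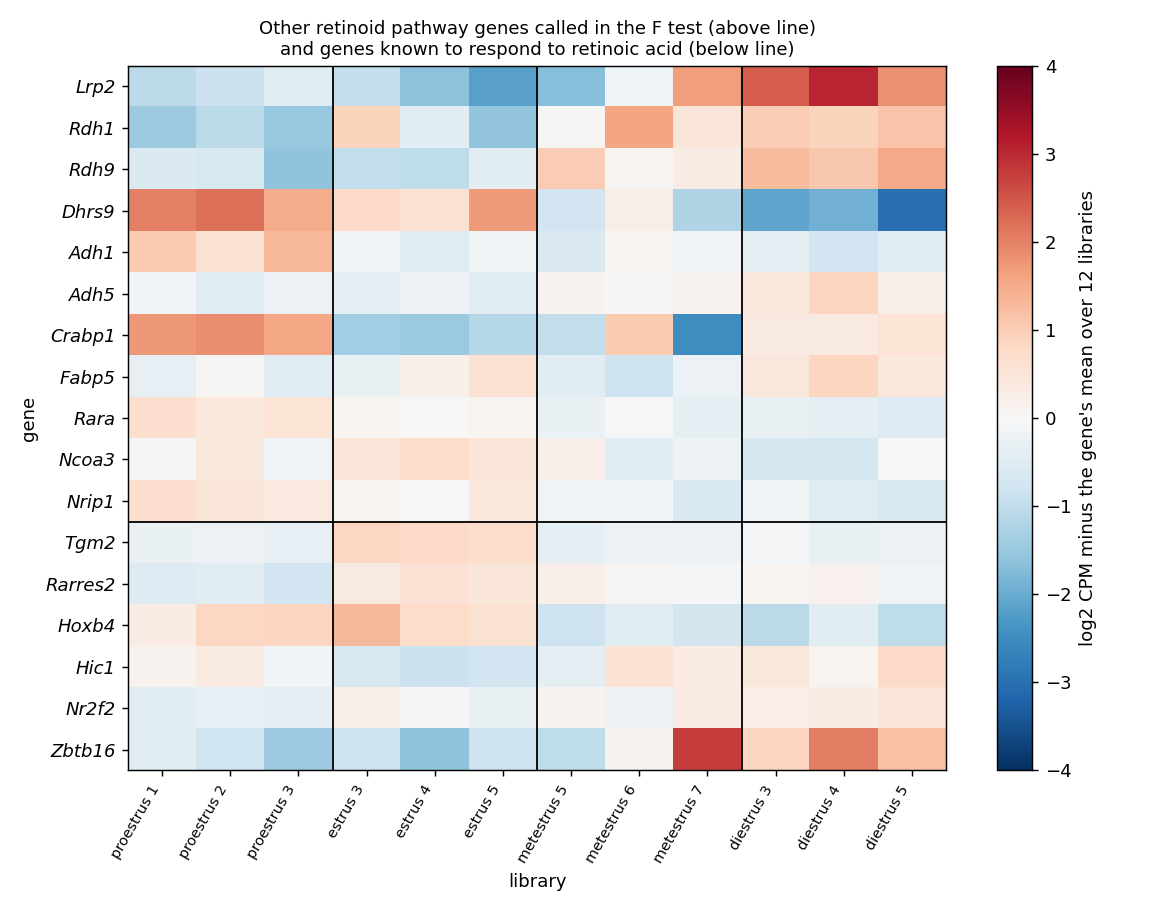
Log2 CPM of 17 genes in each library (columns, grouped by stage) after subtracting the gene's mean over the 12 libraries; red is above the mean and blue below, with the 11 other pathway genes called in the F test above the horizontal line and 6 genes known to respond to retinoic acid below it. Dhrs9 runs from 2.2 above its mean in proestrus to 3.02 below it in diestrus, and Zbtb16 reaches 2.77 above its mean in metestrus replicate 7.

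For each tested gene, the 3 genes with the most similar log2 CPM over the 12 libraries were sought among 9438 genes with a mean of at least 10 CPM. They were Hnrnpab (Pearson r 0.95), Actr1b (0.94) and Cisd1 (0.94) for Aldh1a1, and Eif4a1 (0.95), Hnrnpf (0.94) and Ybx1 (0.94) for Aldh1a2. For Crabp2 they were Slc16a6 (0.94), Bcat1 (0.94) and Pinx1 (0.93). For Rdh10 they were Lpin3 (0.95), the estrogen-responsive Sprr2f (0.94) and Wapl (0.91), and for Dhrs3 Npr1 (0.93), Ranbp9 (0.92) and Cxcl16 (0.91). Stra6 was most like Phlda3 (0.95), Pkdcc (0.94) and Pfn2 (0.94). These values describe courses over the same libraries and do not measure the size of a change. Wapl means were 136 CPM in diestrus and 166 in estrus, and those of Sprr2f 103 and 2507 CPM. From proestrus to estrus the mean of Eif4a1 went from 385 to 273 CPM, and that of Aldh1a2 from 109 to 21.0 CPM.

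The stage labels were checked on estrogen-responsive genes. Ltf, lactotransferrin, had means of 442 ± 183 CPM in proestrus, 2922 ± 1000 in estrus, 481 ± 673 in metestrus and 91.2 ± 66.4 in diestrus (SD, n = 3). Within metestrus, replicate 5 stood at 1259 CPM and replicates 6 and 7 at 102.3 and 82.9 CPM. C3 and Lcn2 were also highest in replicate 5 among the metestrus libraries, at 1893 and 976 CPM. Rdh10, Dhrs3 and Crabp2 were likewise highest in metestrus replicate 5. Other genes were not: Aldh1a1, Aldh1a2 and Stra6 stood at 25.4, 43.1 and 18.2 CPM there and at 25.9, 54.3 and 18.9 CPM in replicate 6. Tgm2, highest in estrus, was lowest in replicate 5 among the metestrus libraries (212.1 CPM). Areg, a progesterone-responsive growth factor gene, had no count in proestrus, estrus or metestrus and was at 1.496, 9.89 and 1.698 CPM in diestrus. With 26 counts in all it did not pass the filter. Diestrus replicates 3 and 5 were at the level of 3 counts, so only replicate 4 stood above that level.

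Marker lists showed that the tissue had the cell types of a uterus and that markers of several of them differed between stages. The summed simple epithelium markers were at 1319 to 1758 CPM in proestrus, 1366 to 1635 in estrus, 503 to 1063 in metestrus and 483 to 693 in diestrus. All 9 of 9 were called in the F test, in which 23.2% of all genes were called. Of these, 8 were called higher in proestrus than in diestrus, as 4.62% of all genes were. Cldn4 was called lower (means of 1.83 and 5.81 CPM), as 3.91% of all genes were. Stroma markers summed to 9527 to 9649 CPM in proestrus, 7845 to 8319 in estrus, 5388 to 11230 in metestrus and 7250 to 9575 in diestrus, with 5 of 9 called. Smooth muscle markers summed to 8753 to 11230 CPM in estrus and 5715 to 9165 CPM elsewhere, with 5 of 9 called. The endothelial markers summed to 1406 to 2126 CPM, and 0 of 9 were called. Most of that sum was Pecam1 (1075 to 1923 CPM).

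Leukocyte markers summed to 194 to 231 CPM in proestrus, 531 to 649 in estrus, 283 to 543 in metestrus and 283 to 449 in diestrus. In the F test 7 of the 8 tested were called, against 23.2% of all genes. The mesothelium markers summed to 483 to 736 CPM in proestrus, 286 to 437 in estrus, 196 to 233 in metestrus and 113 to 185 in diestrus, but most of the proestrus sum was Krt7, which epithelium also has. Of the other genes of that list, Msln (1.04 to 9.16 CPM), Upk3b (9.34 to 36.0 CPM), Lrrn4 and Gpm6a were tested and not called in the F test. Msln, Upk3b and Gpm6a had their highest mean in estrus, and Lrrn4 in proestrus (4.39 against 3.91 CPM in estrus). Upk1b and Muc16 did not pass the filter. Wt1, which stroma also has, was called in the F test, with means of 39.3 CPM in proestrus, 24.7 in estrus, 57.8 in metestrus and 58.2 in diestrus, and was lower in estrus than in proestrus, as Aldh1a1 and Aldh1a2 were. Ovary markers summed to 30.7 to 91.8 CPM, with Zp3 at 0 in every library, and oviduct markers to 11.9 to 56.3 CPM. Most of the ovary sum was Foxl2, Star and Inhba, and Amh, Gdf9 and Oosp1 stayed at or under 0.989 CPM. Only Foxl2 was called in the F test, and it was lower in estrus than in proestrus (means of 15.6 and 45.0 CPM). Gland markers summed to 3.77 to 25.9 CPM in the proestrus, estrus and other metestrus libraries, to 866 CPM in metestrus replicate 7 and to 29.4 to 124 CPM in diestrus. The 866 CPM were nearly all Spink1, Prss29 and Prss28. Adipocyte and squamous epithelium markers summed to at most 23.9 and 17.3 CPM, with the squamous keratin gene Krt6a at 0. The part of these cell types in the retinoid results was not tested. The proestrus to estrus fall of Aldh1a1 and Aldh1a2 came with a stroma sum that was lower and an epithelium sum that overlapped. The stroma markers went both ways in that comparison, in which 17.1% of all genes were called. Col1a1 (means of 3243 and 1548 CPM in proestrus and estrus), Hoxa10 and Hoxa11 were called lower in estrus. Pdgfra (46.2 and 135 CPM) was called higher, and the other 5 were not called. Of those not called, Col3a1 (2828 and 1831 CPM) and Lum had lower means in estrus. Dcn (2475 and 3398 CPM) and Vim (477 and 810 CPM) had higher means there, and Hand2 was nearly level. The lower sum came mainly from Col1a1 and Col3a1.

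**Figure D4:**
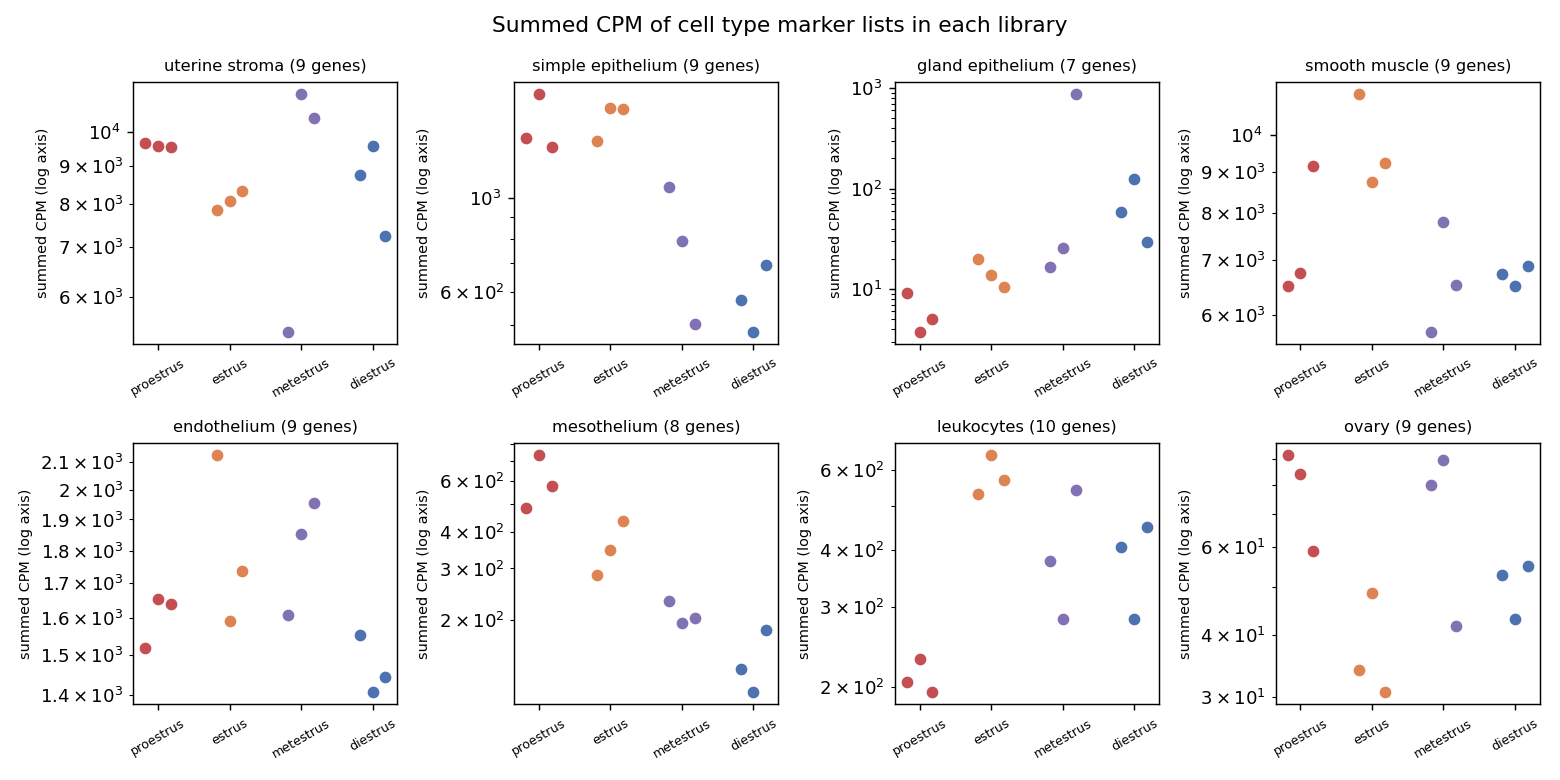
Summed CPM of 8 cell type marker lists in each library, by stage, on log axes that differ between panels; points are libraries. The simple epithelium sum is lower in metestrus and diestrus than in proestrus and estrus. The gland sum reaches 866 CPM in metestrus replicate 7, nearly all of it Spink1, Prss29 and Prss28.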

How the data were processed

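The authors deposited 1 table of estimated counts per library for 119414 transcripts. The submitters' processing notes name kallisto, FastQC and DESeq2, and the transcript index and the use of strand are not given in the sources used here. Per the labels' protocols, libraries were made by 3' TagSeq from 100 ng of total RNA, without a mention of molecular identifiers. The level of 3 counts covers counting error only, while SEs and 95% intervals come from the fit and include the spread between libraries. Transcripts were matched without version to GENCODE M21 (97.7% matched; the unmatched held 0.619% to 0.774% of each library) and the deposited estimated counts were summed per gene and rounded to whole numbers. Totals per library ran from 1652841 to 2200563 estimated counts, and 3 counts, the most that a count of 0 allows, were 1.37 to 1.89 CPM.

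Genes were filtered by stage with filterByExpr (minimum count 10) in edgeR 4.0.16, scaled with TMM factors (0.908 to 1.05) and fitted by quasi-likelihood with 1 coefficient per stage over all 12 libraries (coefficient of biological variation 20.6%). The F test for any stage difference and 6 contrasts, two-sided, were adjusted by Benjamini-Hochberg over 12052 genes, and an adjusted p under 0.05 was called. Log2 CPM used a prior count of 2. Alternatives were DESeq2 1.42.0, other library scalings, no filter, only the 2 stages compared, each library left out, a replicate block, and Aldh1a1 summed with Aldh1a7. Same-numbered estrus and diestrus libraries had correlations of deviations between -0.0433 and 0.0131, so the numbers were not taken as pairs.

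The genes named are the 9 genes, pathway genes called in the F test, the 3 most similar genes of each, genes sharing sequence with them, and Ltf, Lcn2, C3 and Areg; Cyp26a1, Rarg, Rxra, Rxrb and the marker genes given singly were named after their values were seen. The 9 genes and all lists were chosen with earlier results of these data known.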

Additional observations from a re-analysis of the deposited data

How the results depend on the processing

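None of the called differences of the 6 tested retinoid genes changed direction under the alternatives run. Differences that were not called changed sign in at least 1 alternative for Aldh1a2 (diestrus minus metestrus), Crabp2 (metestrus minus estrus, diestrus minus metestrus and diestrus minus estrus), Rdh10 (diestrus minus metestrus and metestrus minus proestrus) and Dhrs3 (metestrus minus proestrus). Of 720 refitted values over 42 results, 650 stayed on the same side of the threshold, 55 lost the call and 15 gained it. With only the 2 stages compared in the fit, 5 of the tested retinoid genes were called for estrus minus proestrus. The count over all genes there stayed within a factor of 1.5 of the main fit's 2064. For metestrus minus proestrus, 0 of the retinoid genes and 42 of all genes were called. The counts over all genes were 299 for metestrus minus estrus and 0 for diestrus minus metestrus. This fit has fewer samples. DESeq2 called 2 of the retinoid genes for metestrus minus estrus. The count over all genes for that comparison stayed within a factor of 1.5 of the main fit's 911. For diestrus minus metestrus DESeq2 called 129 of all genes. Without the filter, 3 retinoid genes were called for metestrus minus estrus, where the count over all genes again stayed within a factor of 1.5 of 911. For diestrus minus metestrus 1 retinoid gene and 256 of all genes were called. For metestrus minus proestrus 935 of all genes were called. The cause was not tested.

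Leaving out each library in turn, the retinoid genes called ran from 4 to 6 in the F test, 2 to 4 for estrus minus proestrus, 0 to 2 for metestrus minus estrus, 0 to 0 for diestrus minus metestrus, 2 to 4 for proestrus minus diestrus, 1 to 3 for metestrus minus proestrus and 2 to 6 for diestrus minus estrus. Over all genes the counts ran from 1910 to 3428, 1100 to 2414, 341 to 1364, 5 to 173, 519 to 1281, 78 to 1080 and 1910 to 3146 in the same order. With the replicate number as a block in the fit of estrus and diestrus, 5 retinoid genes and 2935 genes were called, against 5 and 2744 without it. For Aldh1a3, Rarb and Cyp26b1 the depth limits what could be detected.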
